A study of Gallus gallus with 5 samples.

Results

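The GATA factors of the chick were followed through early ear development, by the 5 loci whose symbol is GATA and a number from 1 to 6, of 18365 loci with read counts. These were *Gata2* (GATA2, XLOC_003307), *Gata3* (GATA3, XLOC_000049), *Gata4* (GATA4, XLOC_010489), *Gata5* (GATA5, XLOC_007802) and *Gata6* (GATA6, XLOC_006499). *Gata1* was not analysed here. All tissue came from embryos of the Bovans Brown breed, without any treatment. RNA of 5 conditions was sequenced, each as 1 library. They were the pre-placodal region, posterior part (PPR), at Hamburger-Hamilton stage 6 (HH6), otic-epibranchial progenitors (OEPs) at the 5-6 somite stage (ss), the thickened otic placode at 8-9ss, the same placode while it invaginates (11-12ss), and whole embryos of 3ss. In the study's methods the mesoderm and endoderm were peeled off with the help of dispase before the ectoderm was cut out, and many pieces of tissue were pooled for a library.

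GATA factors are zinc finger proteins that bind the DNA sequence GATA, from which they take their name. In vertebrates they fall into a group that is best known from blood and ectoderm (*Gata1* to *Gata3*) and a group of heart and endoderm factors (*Gata4* to *Gata6*). *Gata2* is required for blood stem and progenitor cells in the mouse, and together with *Gata3* it is an early marker of non-neural ectoderm in frog and chick embryos. *Gata3* is required for formation of the inner ear in the mouse, and loss of a single copy in humans causes a syndrome of hypoparathyroidism, deafness and kidney defects.

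Total counts were between 26858887 (5-6ss) and 136916870 (PPR), a 5.10-fold range. Summed over the 5 genes, GATA RPKM was 138 in the PPR, 119, 121 and 79.6 at the otic stages, and 189 in the whole embryo. The otic libraries carried otic markers. Of 7 otic markers, 6 were expressed at each otic stage (above 4 RPKM and above 300 normalized counts), against 1 in the PPR and 2 in the whole embryo, and their summed RPKM was 580 at 5-6ss, 896 at 8-9ss and 1077 at 11-12ss, with 49.5 in the PPR and 67.7 in the whole embryo. *Hmx3* was the otic marker that was not expressed, with 0, 10 and 61 counts at the 3 otic stages. Of 7 surface ectoderm markers with a locus, 5 were expressed in the PPR, at 5-6ss and in the whole embryo, and 4 at 8-9ss and at 11-12ss. Their summed RPKM was 705 in the PPR, 844 at 5-6ss, 634 at 8-9ss and 544 at 11-12ss, and 328 in the whole embryo. Since no condition has a replicate, no p-value was computed. The intervals below are 95% intervals of counting error, which do not cover differences between embryos or dissections or reads copied by PCR. In bulk tissue, fewer cells that express a gene and less RNA per cell cannot be told apart.

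The dominant GATA gene of the ectoderm changed between the PPR and OEPs. *Gata2* stood first by RPKM (reads scaled to transcript length and library size, which allows levels of different genes to be compared) in the PPR, and *Gata3* stood first at each of the 3 otic stages. *Gata2* had an RPKM of 109 in the PPR, 17.2 at 5-6ss, 6.01 at 8-9ss and 9.68 at 11-12ss, and 59.1 in the whole embryo. *Gata3* had an RPKM of 19.0 in the PPR, 86.9 at 5-6ss, 112 at 8-9ss and 63.5 at 11-12ss, and 6.74 in the whole embryo. The 2 profiles thus crossed between HH6 and 5-6ss, and *Gata3* was higher in every otic library than in the PPR or the whole embryo, while *Gata2* was lower in every otic library than in either of them. *Gata3* supplied 72.7%, 92.1% and 79.7% of the summed GATA RPKM at the successive otic stages, against 13.7% in the PPR and 3.57% in the whole embryo.

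**Figure D1:**
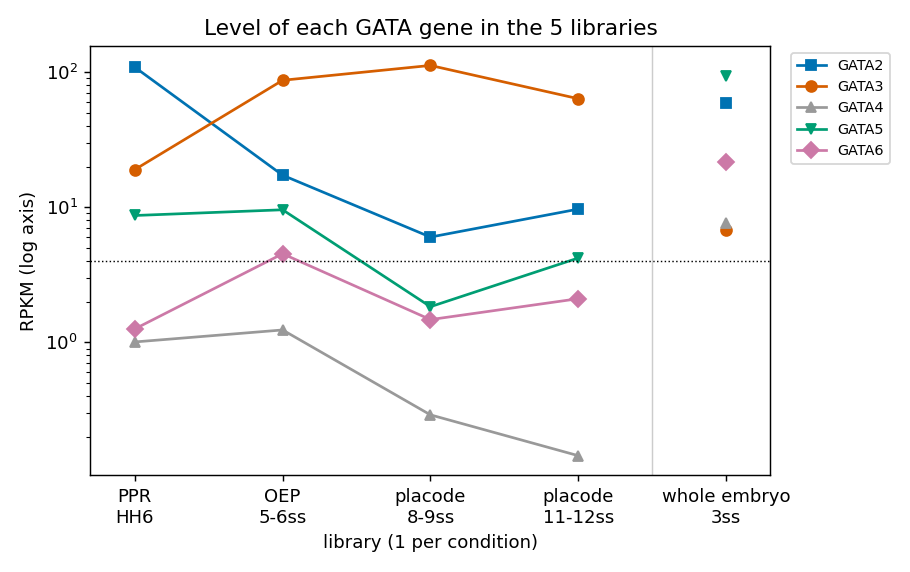
RPKM on a log axis (y) of each GATA gene in the 5 libraries (x), with 1 point per library, lines through the 4 stages of the ectoderm, and a dotted line at RPKM 4. *Gata2* and *Gata3* cross between the PPR (109 and 19.0) and OEPs (17.2 and 86.9), and *Gata4*, *Gata5* and *Gata6* are highest in the whole embryo.

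The ratio of both genes within a library does not depend on how libraries are scaled to each other. By RPKM the level of *Gata3* over that of *Gata2* was 0.175 in the PPR, 5.04 at 5-6ss, 18.6 at 8-9ss and 6.56 at 11-12ss, and 0.114 in the whole embryo. The ratio of their counts was 26.7-fold larger at 5-6ss than in the PPR (95% interval 24.7 to 28.8) and 3.80-fold larger at 8-9ss than at 5-6ss (3.38 to 4.28). At 11-12ss it was 0.348 of the ratio at 8-9ss (0.308 to 0.393), so that the last step went the other way. It was still 35.3-fold larger at 11-12ss than in the PPR (32.4 to 38.4).

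The other 3 genes were low in the dissected ectoderm. *Gata5* had an RPKM of 8.68 in the PPR, 9.57 at 5-6ss, 1.84 at 8-9ss and 4.21 at 11-12ss, and 93.8 in the whole embryo, where it was the highest GATA gene. *Gata6* had an RPKM of 1.26, 4.53, 1.47 and 2.1 at the successive stages, and 21.7 in the whole embryo. *Gata4* had an RPKM of 1.01, 1.24, 0.291 and 0.145, and 7.62 in the whole embryo. In counts, *Gata4* reached 142 in the PPR, 27 at 5-6ss, 7 at 8-9ss and 2 at 11-12ss, with 393 in the whole embryo. Together *Gata4*, *Gata5* and *Gata6* made up 7.91% of the summed GATA RPKM in the PPR, 12.8% at 5-6ss, 2.96% at 8-9ss and 8.11% at 11-12ss, and 65.1% in the whole embryo. All 5 GATA genes passed the expression levels in the whole embryo, 3 in the PPR and in OEPs (*Gata2*, *Gata3* and *Gata5*), and 2 at 8-9ss and at 11-12ss (*Gata2* and *Gata3*).

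When the 5 libraries were ordered by RPKM for each gene, neighbours differed beyond the counting interval in 16 of 20 cases. The order was 8-9ss, 5-6ss, 11-12ss, PPR and whole embryo for *Gata3*, and PPR, whole embryo, 5-6ss, 11-12ss and 8-9ss for *Gata2*, and each neighbour was separated in both. For *Gata5* the whole embryo was followed by 5-6ss, PPR, 11-12ss and 8-9ss, and by counts these were separated too. The ratio of 5-6ss to the PPR was 1.35 by counts (1.18 to 1.53) but 1.10 by RPKM. *Gata4* did not separate 5-6ss from the PPR, with a ratio of normalized counts of 0.999 (0.636 to 1.52), nor 8-9ss from 11-12ss. *Gata6* did not separate 11-12ss from 8-9ss, or 8-9ss from the PPR, with a ratio of 1.33 (0.924 to 1.88). With 1 library per condition, the spread between replicates is unknown for each of these orders.

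To ask which GATA genes differ from the whole embryo in the dissected tissues, each stage was compared with the whole embryo at 3ss. Each pair differs in stage as well as in tissue, and these cannot be told apart. A gene was called higher or lower when its normalized counts differed more than 1.5-fold and it was expressed, by the levels above, in whichever library of the pair gave more. *Gata3* was called higher in all 4 libraries. At 5-6ss it had 7296 counts, against 1099 in the whole embryo, which is 12.1-fold higher after normalization (11.4 to 12.9). At 8-9ss it was 16.4-fold higher (15.4 to 17.4), on 15163 counts. It was 8.99-fold higher at 11-12ss (8.43 to 9.58) and 2.83-fold higher in the PPR (2.66 to 3.02). Among expressed loci *Gata3* had the 30th highest fold change of 8704 at 5-6ss, the 33rd of 8949 at 8-9ss and the 80th of 9004 at 11-12ss, and the 183rd of 9467 in the PPR.

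*Gata2* was called higher in the PPR and lower at the otic stages, against the same whole embryo library. It had 27310 counts in the PPR and 5135 in the whole embryo, a 1.87-fold difference after normalization (1.81 to 1.92), which a threshold of 2-fold would not call. At 5-6ss it was 3.33-fold lower than in the whole embryo (3.10 to 3.59), with 842 counts. At 8-9ss it was 9.39-fold lower (8.54 to 10.4) and at 11-12ss 5.96-fold lower (5.49 to 6.48). The PPR is therefore the only one of the 4 dissected tissues in which *Gata2* was above the whole embryo.

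*Gata5* and *Gata6* were called lower in all 4 libraries. *Gata5* was 9.44-fold lower than in the whole embryo in the PPR (8.82 to 10.1), 7.07-fold lower at 5-6ss (6.27 to 8.00), 51.0-fold lower at 8-9ss (39.6 to 66.8) and 19.9-fold lower at 11-12ss (16.8 to 23.8). *Gata6* was 16.5-fold lower in the PPR (13.6 to 20.2), 4.15-fold lower at 5-6ss (3.33 to 5.23), 12.5-fold lower at 8-9ss (9.26 to 17.2) and 10.2-fold lower at 11-12ss (7.68 to 13.9). Both genes were thus nearest to their whole embryo level in OEPs. *Gata4* was 7.89-fold lower in the PPR (6.50 to 9.63), 47.2-fold lower at 8-9ss (22.7 to 118) and 147-fold lower at 11-12ss, where its 2 counts leave an interval from 40.5 to 1221. By deposited RPKM *Gata4* was 26.2-fold lower at 8-9ss and 52.5-fold lower at 11-12ss, and its calls in the PPR, at 8-9ss and at 11-12ss were lost when libraries were thinned to the smallest one. At 5-6ss *Gata4* was 7.96-fold lower (5.39 to 12.2) but was not called, because its normalized count in the whole embryo was 291 in that pair. It was called lower when size factors were taken over all 5 libraries.

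Of the 5 genes, 2 were called higher and 3 lower in the PPR, while 15.7% of 9467 expressed loci were higher and 12.9% lower. In OEPs 1 was higher and 3 lower, with 13.9% and 10.2% of 8704 loci. At 8-9ss 1 was higher and 4 lower, with 15% and 13.1% of 8949 loci, and at 11-12ss 1 was higher and 4 lower, with 14.7% and 12.8% of 9004 loci. The median log2 fold change of the expressed GATA genes was -2.98 in the PPR, -1.90 at 5-6ss, -3.64 at 8-9ss and -3.36 at 11-12ss. The 5-6ss median covers 4 genes. *Gata6* in all 4 tissues, *Gata4* where it was expressed, and *Gata5* at 8-9ss and 11-12ss reached the expression levels only in the whole embryo. Such genes could not be called higher, so their lower calls and these medians follow in part from how the set was formed. The median over all expressed loci lay between -0.01 and 0.06 in these comparisons. They share the whole embryo library, so that its own noise enters each of them.

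**Figure D2:**
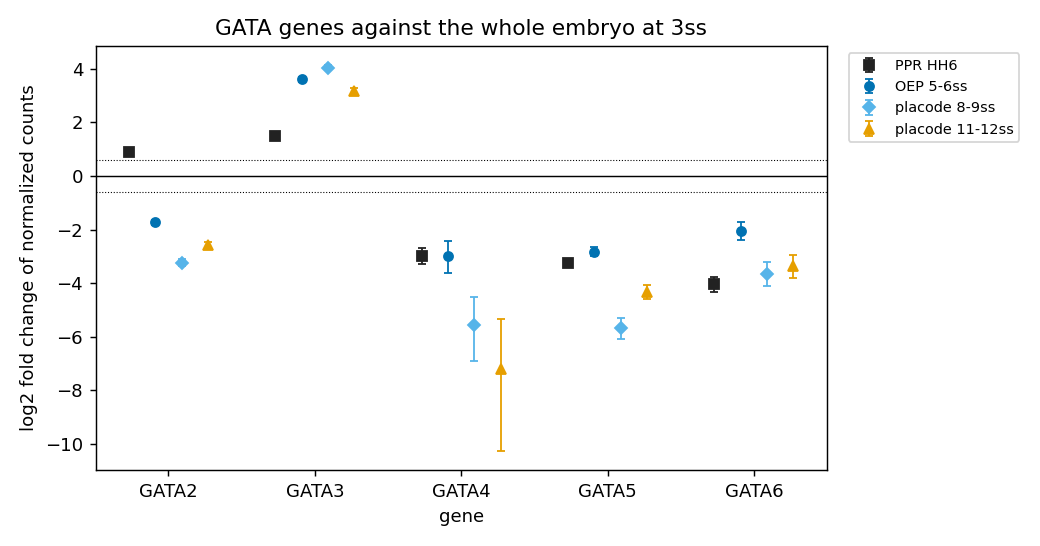
Log2 fold change of normalized counts over the whole embryo at 3ss (y) for each GATA gene (x) in the PPR, in OEPs and in the placode at 8-9ss and 11-12ss, with bars for the 95% counting interval and dotted lines at 1.5-fold. *Gata3* lies above 0 in all 4 tissues (1.5 to 4.04), *Gata2* only in the PPR (0.90), and *Gata4*, *Gata5* and *Gata6* lie between -2.05 and -7.20.

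To see at which step the GATA genes change, consecutive stages were compared. From the PPR to OEPs, *Gata3* rose and *Gata2* fell. *Gata3* had 7296 counts at 5-6ss and 8872 in the deeper PPR library, and was 4.29-fold higher at 5-6ss after normalization (4.16 to 4.43). *Gata2* fell to 842 counts at 5-6ss, against 27310 in the PPR, and was 6.21-fold lower (5.80 to 6.66). By fold change it was the 77th lowest of 9253 expressed loci. *Gata5* was 1.34-fold higher (1.17 to 1.52) and was not called. *Gata6* had 90 counts at 5-6ss and 118 in the PPR, a ratio of 3.98 after normalization (2.99 to 5.28), but at a normalized count of 206 it did not reach the expression level. The ratio of *Gata4* was 0.993 (0.632 to 1.51). At this step 1 of the 3 GATA genes that were expressed was higher and 1 lower, while 18% of all expressed loci were higher and 18.9% lower.

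From OEPs to the thickened placode, no GATA gene was called higher. *Gata2* was 2.80-fold lower at 8-9ss than at 5-6ss (2.49 to 3.14) and *Gata5* 7.16-fold lower (5.41 to 9.60), with 61 counts at 8-9ss against 286 at 5-6ss. By fold change *Gata5* was the 6th lowest of 8281 expressed loci, and *Gata2* the 43rd lowest. *Gata3* was 1.36-fold higher (1.32 to 1.40), which is below the threshold. *Gata6* had a ratio of 0.335 (0.229 to 0.483) and *Gata4* a ratio of 0.170 (0.0624 to 0.400) on 7 counts at 8-9ss and 27 at 5-6ss, and neither reached the expression level in this pair. Of the 3 expressed GATA genes 2 were lower, compared with 4.99% of all expressed loci, whereas 3.89% of loci were higher. The call of *Gata5* rests on a normalized count of 353 at 5-6ss, the only library of the pair in which it was expressed. *Gata5* could therefore not be called higher, and its rank and lower call follow in part from how the set was formed. The lower call of *Gata5* was lost when all libraries were thinned to the smallest one.

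From 8-9ss to 11-12ss both main genes turned round. *Gata3* had 7405 counts at 11-12ss and 15163 at 8-9ss, and was 1.82-fold lower at 11-12ss (1.77 to 1.87). *Gata2* had 646 counts at 11-12ss and 460 at 8-9ss, and was 1.58-fold higher (1.40 to 1.79), an interval that includes 1.5-fold. With a threshold of 2-fold neither gene was called at this step. The 139 counts of *Gata5* at 11-12ss, against 61 at 8-9ss, gave a ratio of 2.57 (1.89 to 3.53) without reaching the expression level. *Gata6* had a ratio of 1.22 (0.804 to 1.87), and *Gata4* had 2 and 7 counts in these libraries. Of the 2 expressed genes 1 was higher and 1 lower, with 6.54% and 3.63% of 8529 loci.

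Over the whole course, the invaginating placode at 11-12ss was compared with the PPR. *Gata3* was 3.21-fold higher at 11-12ss (3.12 to 3.31). *Gata2* was 11.0-fold lower (10.2 to 11.9) and *Gata5* 2.09-fold lower (1.75 to 2.51), a call on *Gata5* that was lost when libraries were thinned to the smallest one. In this pair *Gata5* was expressed only in the PPR, so it could not be called higher. Here 1 of 3 expressed GATA genes was higher and 2 were lower, while 19.1% of 9543 expressed loci were higher and 19.8% lower. *Gata6*, which was not expressed in either library by these levels, had a ratio of 1.63 (1.15 to 2.29).

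**Figure D3:**
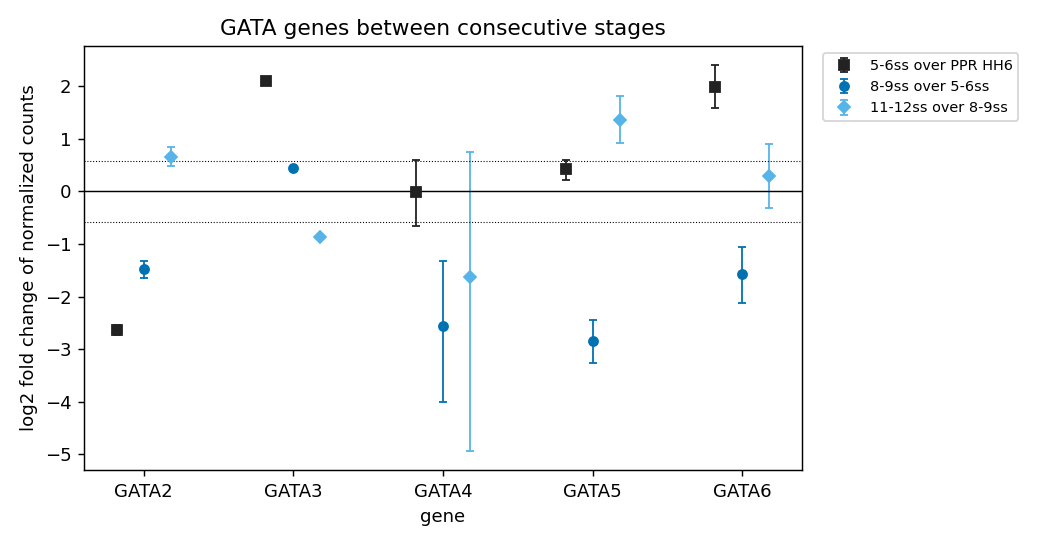
Log2 fold change of normalized counts (y) for each GATA gene (x) at the 3 consecutive steps, later stage over earlier stage, with bars for the 95% counting interval and dotted lines at 1.5-fold. *Gata2* is at -2.64, -1.48 and 0.66 and *Gata3* at 2.1, 0.44 and -0.86, and the intervals of *Gata4* are the widest.

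*Gata4*, *Gata5* and *Gata6* are expressed in heart and endoderm of many vertebrates, so marker lists of endoderm, mesoderm, and blood and vessel were read in the same libraries. Of 11 endoderm markers 7 had a locus, and their summed RPKM was 24.7 in the PPR, 112 at 5-6ss, 26.5 at 8-9ss and 17.8 at 11-12ss, and 317 in the whole embryo. The summed RPKM of *Gata4*, *Gata5* and *Gata6* was likewise highest at 5-6ss among the dissected tissues, with 10.9, 15.3, 3.60 and 6.46 at the successive stages and 123 in the whole embryo. The endoderm sum at 5-6ss came mostly from *Apoa1* (APOA1), the main apolipoprotein of high density lipoprotein, at 70.5 RPKM, and from *Ttr* (TTR), a thyroid hormone carrier, at 38.2 RPKM. The regulators *Hnf4a* (HNF4A) and *Cer1* (CER1) had 20 and 79 raw counts in the deeper PPR library and 6 and 9 at 5-6ss. By RPKM *Hnf4a* was higher at 5-6ss (0.221) than in the PPR (0.0836), and *Cer1* was lower (0.655 and 0.788). Both had 0 counts at 8-9ss and 11-12ss, which allows up to 3 counts, against 83 and 304 counts in the whole embryo. Of the 7 endoderm markers 3 had a higher RPKM at 5-6ss than in the PPR and 4 a lower one, among them *Hhex* (HHEX, 1.98 at 5-6ss and 3.80 in the PPR) and *Shh* (SHH, 0.300 and 0.406).

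Heart and lateral mesoderm markers, of which 13 of 15 had a locus, summed to 157 RPKM in the PPR, 158 at 5-6ss, 144 at 8-9ss and 101 at 11-12ss, and to 276 in the whole embryo. Most of this sum in the dissected tissues was troponin C (TNNC1), with 66.6 to 108 RPKM. *Hand1* (HAND1), a factor of the heart and lateral plate, had an RPKM of 7.08 in the PPR, 13.2 at 5-6ss, 0.513 at 8-9ss and 1.25 at 11-12ss, and 84.4 in the whole embryo. Among the dissected tissues *Hand1* was thus lowest at 8-9ss, and so were TBX5, TBX20 and MYOCD, but by small margins. TBX5 and TBX20 had 0 counts at 8-9ss and 3 each at 11-12ss, and MYOCD had an RPKM of 0.357 at 8-9ss and 0.410 at 5-6ss. By contrast, TNNC1, MYH7, MYL3, TNNT2 and ACTC1 were lowest at 11-12ss, and NKX2-5, ISL1 and MEF2C in the PPR. In OEPs, 7 of the 13 loci had a higher RPKM than in the PPR and 5 a lower one. Blood and vessel markers (16 loci for 27 listed genes, with HBZ at separate loci) summed to 34.2, 32.0, 26.9 and 39.1 RPKM at the successive stages. They summed to 54.6 in the whole embryo. In the PPR 23.3 of this sum was *Epas1* (EPAS1), which had 0.949 RPKM at 11-12ss. Of the 16 loci 10 had a higher RPKM at 5-6ss than in the PPR and 4 a lower one, but only 2 were expressed in the PPR and 3 at 5-6ss. Among the higher ones, *Kdr* (KDR) had 0.328 RPKM in the PPR, 1.54 at 5-6ss and 3.48 at 11-12ss. Paraxial and head mesoderm markers (8 of 10) summed to 13.8, 35.4, 43.4 and 67.5 RPKM, and to 337 in the whole embryo. The part of these tissues in the levels of *Gata4*, *Gata5* and *Gata6* was not tested.

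**Figure D4:**
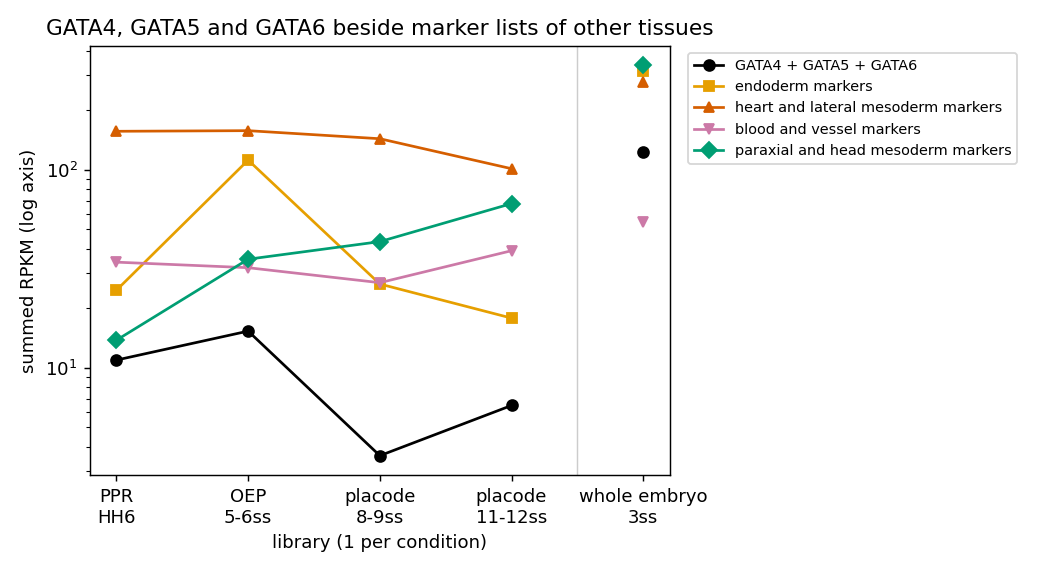
Summed RPKM on a log axis (y) of *Gata4*, *Gata5* and *Gata6* and of marker lists for endoderm, heart and lateral mesoderm, blood and vessel, and paraxial and head mesoderm, in the 5 libraries (x). The GATA sum (10.9, 15.3, 3.60, 6.46 and 123) and the endoderm sum (24.7, 112, 26.5, 17.8 and 317) both have their highest value among dissected tissues at 5-6ss. So does, narrowly, the heart and lateral mesoderm sum (158, against 157 in the PPR).

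GATA factors act with cofactors. Friend of GATA proteins (*Zfpm1* and *Zfpm2*) bind the amino-terminal zinc finger, and in blood cells LIM-only proteins such as *Lmo2* join GATA factors to a complex held together by *Ldb1*. Of 17 listed partners 13 had a locus, and 8 of these were expressed in the comparison of OEPs with the PPR, in which 4 were called higher and 1 lower (median log2 fold change 0.63, compared with -0.03 over all expressed loci, of which 18% were higher and 18.9% lower). *Zfpm1* (ZFPM1) had an RPKM of 18 in the PPR, 42.4 at 5-6ss, 50.2 at 8-9ss and 48.9 at 11-12ss, and 25.6 in the whole embryo. By normalized counts it was 3.27-fold higher at 5-6ss than in the PPR (3.12 to 3.43), a larger rise than by RPKM. It changed by less than 1.5-fold at later steps. *Lmo2* (LMO2) had an RPKM of 0.637 in the PPR, 8.37 at 5-6ss, 9.65 at 8-9ss and 15.8 at 11-12ss, and 16.2 in the whole embryo. It rose 13.3-fold at the first step (11.4 to 15.4) and 1.62-fold at the third (1.5 to 1.75), and at 5-6ss and 8-9ss stayed below the whole embryo. *Lmo2* is also in the blood and vessel list. Of the 16 loci there, 10 had a higher RPKM at 5-6ss than in the PPR, *Lmo2* itself among them, and 4 a lower one. Most were low, with 2 of 16 expressed in the PPR and 3 at 5-6ss. Their summed RPKM was 34.2 in the PPR and 32.0 at 5-6ss. The part of blood or vessel cells in the level of *Lmo2* was not tested.

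*Ldb1* (LDB1) and *Ldb2* (LDB2), the adaptors that bind LIM domains, were 1.93-fold (1.86 to 1.99) and 1.95-fold (1.76 to 2.15) higher at 5-6ss than in the PPR. *Lmo1* (LMO1), a relative of *Lmo2*, went down with *Gata2*: its RPKM was 15.0 in the PPR, 1.21 at 5-6ss, 1.04 at 8-9ss and 1.58 at 11-12ss, and 76.0 in the whole embryo. It was 17.0-fold lower at 5-6ss than in the PPR (10.6 to 29.3). *Klf1* (KLF1), a red cell factor that acts with *Gata1* in blood, had an RPKM of 6.17 in the PPR, 5.36 at 5-6ss, 1.78 at 8-9ss and 1.05 at 11-12ss, and 6.01 in the whole embryo. It fell at the second step, by a factor of 3.27 (2.66 to 4.04). *Lmo4* (LMO4) was 2.46-fold (2.38 to 2.55) and *Zfpm2* (ZFPM2) 2.54-fold (2.31 to 2.80) higher at 11-12ss than in the PPR, the only comparison between stages in which either was called. In that comparison 6 of 9 expressed partners were higher and 2 lower, with 19.1% and 19.8% of all expressed loci. *Runx1* (RUNX1), *Gfi1b* (GFI1B) and *Spi1* (SPI1), factors of blood cells, had no more than 24 counts in any library. TCF12, a partner in the blood complex, is listed at an RPKM of 0 in the PPR although it has 150720 counts there. By counts it was 1.51-fold lower at 5-6ss than in the PPR (1.49 to 1.53), and it was not called because of that RPKM.

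**Figure D5:**
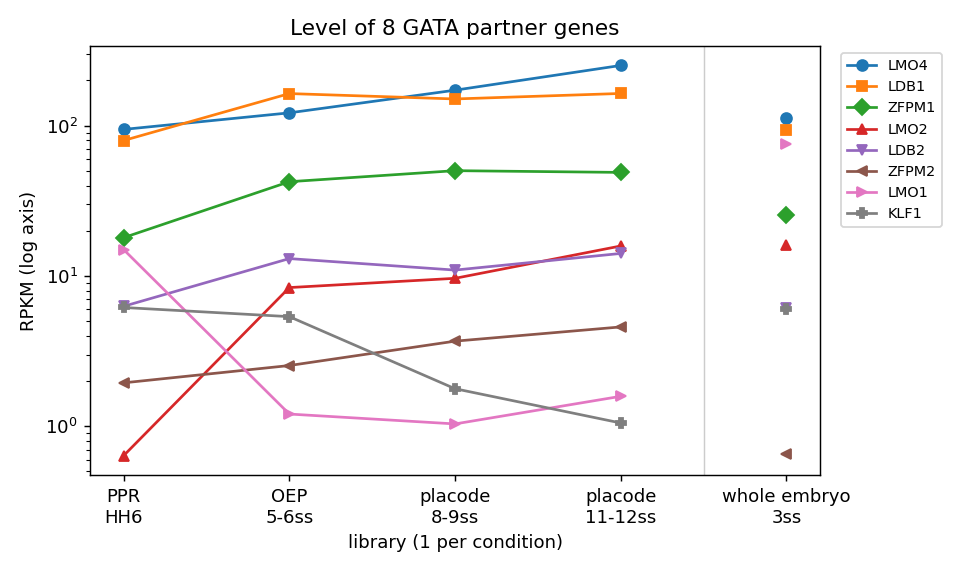
RPKM on a log axis (y) of 8 genes that encode GATA partners in the 5 libraries (x), with lines through the 4 stages of the ectoderm. *Zfpm1* (18 and 42.4) and *Lmo2* (0.637 and 8.37) are higher in OEPs than in the PPR, and *Lmo1* (15.0 and 1.21) is lower.

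*Gata2* and *Gata3* share the early ectoderm with other non-neural factors, so these were read beside them. Of 18 listed genes 16 had a locus, and in the PPR 11 of 15 expressed ones were called higher than in the whole embryo and 1 lower (median log2 fold change 1.19, compared with 0.06 over all expressed loci, of which 15.7% were higher and 12.9% lower). At the step to OEPs 5 of 15 were higher (3 by deposited RPKM) and 5 lower, with 18% and 18.9% of all expressed loci, and from 5-6ss to 8-9ss none of 14 was higher and 7 were lower (median -0.55, compared with 0.00), with 3.89% and 4.99% of all expressed loci. *Dlx3* (DLX3), a homeobox factor of surface ectoderm and placodes, rose with *Gata3*: it had an RPKM of 13.9 in the PPR, 71.1 at 5-6ss, 105 at 8-9ss and 104 at 11-12ss, and 7.02 in the whole embryo. *Grhl3* (GRHL3), a factor of surface ectoderm, fell with *Gata2*: it had an RPKM of 14.8, 4.91, 0.269 and 0.619 at the successive stages, and 7.58 in the whole embryo. It was 3.14-fold lower at 5-6ss than in the PPR (2.78 to 3.56) and 26.4-fold lower at 8-9ss than at 5-6ss (16.0 to 46.9). *Tfap2a* (TFAP2A), another early ectoderm factor, had between 225 and 324 RPKM in the 4 dissected tissues, against 52.2 in the whole embryo, and was not called at any step. *Bmp4* (BMP4) encodes a ligand that induces *Gata2* and *Gata3* in frog ectoderm. By normalized counts it changed little from the PPR to OEPs (ratio 0.924, 0.883 to 0.966), but its RPKM was 70.8 in the PPR and 49.1 at 5-6ss. It was 2.81-fold lower by counts at 8-9ss than at 5-6ss (2.62 to 3.02).

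The otic list, into which *Gata3* was not put, had 25 loci for 30 genes. Of these 16 of 21 expressed were higher and 3 lower at 5-6ss than in the PPR (median log2 fold change 2.66), with 18% and 18.9% of all expressed loci. At 8-9ss against 5-6ss, 9 were higher and 2 lower of 22 expressed (median 0.34), with 3.89% and 4.99% of all expressed loci. From 8-9ss to 11-12ss, where *Gata3* was lower, 8 of 21 were higher and 1 lower (median 0.38, compared with -0.03 over all expressed loci), with 6.54% and 3.63% of all expressed loci. Of 9 other genes that encode a GATA-type zinc finger 7 had a locus, and none of the 6 expressed was called from the PPR to OEPs or from 5-6ss to 8-9ss. The other one, the repressor gene TRPS1, was below the RPKM level in every library. It had 16 counts at 5-6ss and 861 in the PPR, a 10.3-fold lower value after normalization (6.31 to 18.1), and was not called. GATAD2B, a subunit of a chromatin remodelling complex, exceeded its 8-9ss value 1.95-fold at 11-12ss (1.86 to 2.05). The GATAD2A locus also holds *Mau2*, so that its values join both genes.

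The genes with the most similar profiles were found by the root mean square (r.m.s.) difference of log2 normalized counts over the 5 libraries, each gene centred on its own mean, among 8576 genes with a symbol. For *Gata3* these were CARD10, a scaffold of NF-κB signalling (r.m.s. difference 0.32), ASS1, the argininosuccinate synthase of the urea cycle (0.38), and HPSE2, a protein related to heparanase (0.38). ASS1 had an RPKM of 36.7 in the PPR, 225 at 5-6ss, 329 at 8-9ss and 250 at 11-12ss, and 15.9 in the whole embryo. Its likeness to *Gata3* follows from how it was picked. CARD10 was highest at 5-6ss (9.50 RPKM, against 8.67 at 8-9ss), unlike *Gata3*. For *Gata2* they were ASTN1, an adhesion protein of migrating neurons (0.24), CCNA1, a cyclin of the germ line (0.30), and ST8SIA2, which makes polysialic acid (0.32). ASTN1 had 37.0, 6.54, 3.09 and 3.62 RPKM at the successive stages, and 30.4 in the whole embryo.

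The profiles nearest to the other 3 genes lay at distances between 0.38 and 0.75. FGB, the fibrinogen beta chain (0.38), APOA1 (0.41) and APLNR, the apelin receptor (0.49), were nearest to *Gata6*. NDP, a ligand of the Wnt receptor Frizzled 4, came first for both *Gata5* (0.56) and *Gata4* (0.65). It was followed by the homeobox gene MSX2 (0.59) and the Notch ligand DLL1 (0.69) for *Gata5*, and by GPC3, a glypican (0.67), and GAD67, a glutamate decarboxylase (0.75), for *Gata4*. These distances describe 5 libraries, each of which enters all genes alike.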

How the data were processed

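RNA-seq reads were aligned by the authors to galGal4 with TopHat2 2.0.7 and assembled into loci with Cufflinks 2.1.1 guided by Ensembl Galgal4.71, per the submitters' processing notes and the study's methods. The deposited counts are raw reads per locus from easyRNAseq 2.1.0, and the deposited RPKM values come from Cuffdiff 2.1.1. The study's methods name single-end runs and longer paired-end runs on different instruments, without saying which library had which. Sequencing may therefore differ between the libraries compared. Strand, read type of each library and the treatment of reads shared by GATA paralogs are not given in the sources used here.

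Counts of each pair of libraries were scaled by median-of-ratios size factors over all loci with counts in both (Python 3.11.15, numpy 2.4.6, pandas 2.3.3). A locus was expressed in a pair at more than 4 RPKM and 300 normalized counts in either library. It was called when the fold passed 1.5 and the library that gave more met these levels. A count of 0 was raised to a floor of 3 counts in the fold, but not in its interval. Intervals are exact Clopper-Pearson 95% intervals of the split of both counts (scipy 1.17.1). They cover counting error only. With 1 library per condition no test was possible. All GATA loci are named, and list genes are named as examples, and for each GATA gene the 3 genes nearest in profile (log2 of normalized count + 1, size factors over all 5 libraries). The members and the gene lists were chosen with earlier results of these data known. Alternatives were total counts, TMM (edgeR 4.0.16), size factors over all 5 libraries or from loci with at least 10 counts, thinning, deposited RPKM and other thresholds. The code was tested on simulated data. Figures were drawn with matplotlib 3.10.9.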

Additional observations from a re-analysis of the deposited data

Results flagged for a closer look

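*Gata2* was called in opposite directions against the same whole embryo library. Its log2 fold change over the whole embryo was 0.90 in the PPR, and -1.74 at 5-6ss, -3.23 at 8-9ss and -2.58 at 11-12ss. Each condition is 1 library, and the difference was not tested.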

How the results depend on the processing

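No paired analysis was possible because each condition has 1 library, and for the same reason no library could be left out. Each of the 40 fold changes of the GATA genes was recomputed under 5 alternatives. Of these 200 values 190 lay within the counting interval. No called value changed direction, and 1 uncalled value did, that of *Gata4* at 5-6ss over the PPR (log2 fold change 0.29 with deposited RPKM and -0.01 with counts). With total counts, the log2 fold change over the whole embryo was 0.85 for *Gata2* in the PPR and 3.95 for *Gata3* at 8-9ss. With deposited RPKM it was -3.43 for *Gata5* in the PPR and -3.29 for *Gata5* at 5-6ss over the whole embryo, 2.20 for *Gata3* and 0.14 for *Gata5* at 5-6ss over the PPR, 0.36 for *Gata3* and -2.38 for *Gata5* at 8-9ss over 5-6ss, and for *Gata3* at 11-12ss -0.82 over 8-9ss and 1.74 over the PPR. With size factors over all 5 libraries, *Gata4* was called lower at 5-6ss than in the whole embryo (log2 fold change -2.98).

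The number of GATA genes called depended on the thresholds. With no expression threshold, 2 were higher at 5-6ss than in the PPR, 4 lower at 8-9ss than at 5-6ss, 2 higher and 2 lower at 11-12ss than at 8-9ss, and 2 higher at 11-12ss than in the PPR. With no count threshold, 2 were higher at 5-6ss than in the PPR and 2 at 11-12ss than at 8-9ss. With a fold over 2, 1 was higher in the PPR than in the whole embryo, and 0 were higher and 0 lower at 11-12ss than at 8-9ss. When the whole interval had to pass 1.5-fold, 0 were higher at 11-12ss than at 8-9ss. With libraries thinned to the smallest one, 1 was lower at 8-9ss than at 5-6ss and 1 at 11-12ss than in the PPR, *Gata5* being lost in both. Against the whole embryo, thinning left 2 lower in the PPR, 3 at 8-9ss and 3 at 11-12ss, *Gata4* being lost in each. By counts *Gata2*, and by RPKM *Gata5*, was the highest GATA gene of the whole embryo. Depth limits *Gata4* most, with 2 to 27 counts at the otic stages.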
